A study of Arabidopsis thaliana with 4 samples.

Results

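The MYB3R and ALY genes encode DNA-binding and scaffold subunits of the plant DREAM complexes. The set was chosen by gene identifier and holds 8 genes, MYB3R1 to MYB3R5 and ALY1 to ALY3, of the 32548 genes in the deposited table. All 8 were in the table and 7 passed the filter on low values. DREAM complexes join E2F and DP factors, the retinoblastoma protein, CXC-domain proteins such as TCX5 and TCX6, LIN9-like proteins and MYB3R factors on promoters of cell cycle genes. MYB3R factors carry R1R2R3 MYB repeats and recognise the mitosis-specific activator (MSA) element of genes expressed at G2 and mitosis. In Arabidopsis MYB3R4 is known as an activator of these genes, MYB3R3 and MYB3R5 as repressors, and MYB3R1 as acting in both ways. The ALY proteins are the plant relatives of animal LIN9 and Drosophila Always early, a core DREAM subunit.

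Messenger RNA was sequenced from whole Arabidopsis thaliana seedlings 2 weeks old, raised on MS plates at 22 °C with 16 h of light and 8 h of dark. The 4 libraries form 2 genotypes with 2 libraries each: cmt3-/- seedlings, which lack the CHG methyltransferase gene CMT3 by label, and seedlings labelled tcx5-/- tcx6-/- cmt3-/-, which by label also lack TCX5 and TCX6, CXC-domain DREAM subunits. All seedlings are therefore cmt3 by label, and no wild type was analysed here. The comparison asks how transcript levels differ when tcx5 and tcx6 are added to cmt3.

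TCX5 stood at 729.8 and 676 in the cmt3 libraries and fell to 251 and 249 in the libraries labelled as triple mutant (log2 fold change -1.49, adjusted p = 0.00121 by limma). TCX6 went against its label and rose from 198 and 179.8 to 919 and 1034 (log2 fold change 2.36, adjusted p = 0.00044 by limma). CMT3, mutated by label in both genotypes, was listed at 822 and 662 and then at 1289 and 1343. Because of TCX6 the genotype is named by its label, the labelled triple mutant, and every direction rests on that label. The deposited values are normalized signals that sum to 38264463 to 41106102 per library, and the number of reads behind them is unknown, as is whether the replicates were separate batches of plants. P-values therefore measure the spread of these 4 libraries only, and that spread may be technical. Leaf markers were abundant, with summed signals of 668892 to 864960 per library, all 6 root markers were detected, and the shoot meristem genes CLV3 and WUS were at 0 in every library. Of 6 genes chosen as references, ACT2, UBQ10, PP2AA3, GAPC2, TIP41L and SAND, 0 were called, with log2 fold changes from -0.23 to 0.14, and at an unadjusted p under 0.05 limma also called 0 of them.

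In the labelled triple mutant 6 of the 7 tested MYB3R and ALY genes were higher and 0 were lower at a limma adjusted p under 0.05. Over all 23666 tested genes, 6.15% were called higher and 2.32% lower. The median log2 fold change was 0.68 over the 7 tested members, against -0.02 over all tested genes. The count of lower members was 0 at an unadjusted p under 0.05 as well. In either direction 8.47% of all tested genes were called, and of those with a mean of 100 or more 7.52% were higher. At a threshold of 0.01, 4 members were higher, against 3.30% of all tested genes. ALY1 and MYB3R4 had the largest changes, ALY2 was close to 2-fold higher, and MYB3R1, MYB3R3 and ALY3 rose by 0.53 to 0.68 on the log2 scale. In all 7 tested members both labelled triple mutant libraries lay above both cmt3 libraries, which was so for 24.4% of all tested genes. RNA came from whole seedlings, so more cells of a dividing type and more RNA per cell cannot be told apart.

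**Figure D1:**
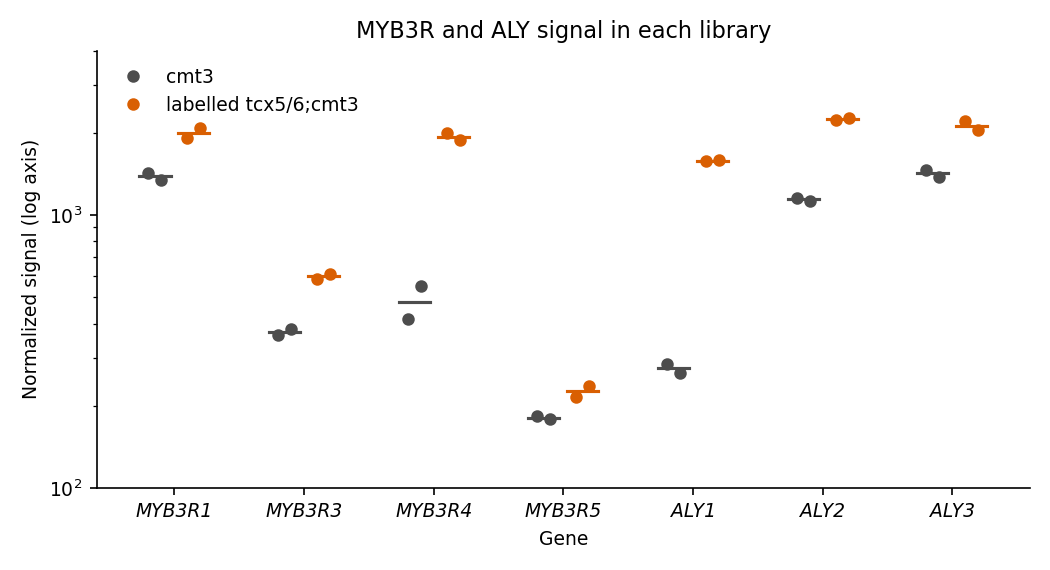
Normalized signal (log axis) of the 7 tested MYB3R and ALY genes, with 1 point per library and a line at the mean of each genotype. The labelled triple mutant points lie above the cmt3 points for every gene shown, with the widest gaps for ALY1 and MYB3R4. MYB3R2, at or near 0 in every library, is not drawn.

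MYB3R4 (AT5G11510, TAIR10.1 chromosome 5, 3679748 to 3684884, plus strand), the activator of G2 and mitosis genes, had signals of 415 and 549 in the cmt3 libraries, compared with 1993 and 1883 in the libraries labelled as triple mutant. The genotypes did not overlap, and the cmt3 replicates lay further apart (0.40 on the log2 scale) than those of 85.4% of abundant genes (mean of at least 100). Its mean rose 4.02-fold from 482 ± 94.9 to 1938 ± 78.0 (SD, n = 2 each), or 2.02 on the log2 scale (SE 0.14, adjusted p = 0.000727 by limma). By size of change it ranked 381 of the 23666 tested genes. Leaving out a single library moved the log2 fold change between 1.82, without cmt3 replicate 1, and 2.22, without cmt3 replicate 2.

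The letters upstream of MYB3R4 are shown because this gene carried several copies of the cell cycle genes homology region (CHR) motif, TTTGAA, the kind of element that animal LIN54, a relative of the TCX proteins, binds. In the 250 bases before its annotated start TTTGAA occurred 3 times and the MSA core AACGG 1 time, on the other strand as CCGTT. Of the 27443 promoters of protein-coding genes in the table, 1.95% held TTTGAA 3 or more times in a window of this length on either strand. At least 1 copy was found upstream of 3 of the 8 members (37.5%), beside 38.8% of all promoters. The window is covered down to the last 9 bases by the annotated exons of AT5G11500, so each site is given with at most 10 flanking bases a side, on the plus strand of RefSeq TAIR10.1 from chr5:3679499-3679524 for the CHR motif farthest from the gene to chr5:3679655-3679679 for the MSA core, with the motif in capitals:
MYB3R4 CHR at -239: tgatatatgaTTTGAAataattatgg
MYB3R4 CHR at -208: cctaaagtgaTTTGAAtcaataatcc
MYB3R4 CHR at -140: tgagtgaaaaTTTGAAaaaaagggaa
MYB3R4 MSA core at -83: ataattatgtCCGTTaaatactaaa
AT5G11500, whose annotated end lies 9 bases before MYB3R4 on the same strand, went from 5336 and 6077 to 5442 and 5683 (95% interval of the log2 fold change -0.26 to 0.19, adjusted p = 0.898 by limma). ASP3, 61 bases beyond the other end on the opposite strand, was not called either (interval -0.12 to 0.37, adjusted p = 0.562 by limma). Both intervals lie below that of MYB3R4, 1.67 to 2.37.

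MYB3R1 (AT4G32730, chromosome 4, 15790133 to 15796114, plus strand), known both as an activator and as a repressor, was the most abundant MYB3R transcript in cmt3. Its cmt3 libraries were at 1426 and 1344 and its labelled triple mutant libraries at 1914 and 2090.2, without overlap. The mean rose from 1385 ± 58.1 to 2002 ± 125 (SD, n = 2 each), or by 0.53 on the log2 scale (SE 0.09, adjusted p = 0.014 by limma). The last 214 bases overlap AT4G32750 on the opposite strand, which went from 379 and 397 to 449.7 and 384. The strand setting of the counting is not known, so reads in that stretch cannot be assigned to one gene.

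Of the repressor genes, MYB3R3 (AT3G09370, chromosome 3, 2879353 to 2882396, plus strand) went from 362 and 381 in cmt3 to 585 and 607. It rose by 0.68 on the log2 scale (SE 0.12, adjusted p = 0.0168 by limma), and its replicates lay close together in both genotypes. MYB3R5 (AT5G02320, chromosome 5, 482793 to 486473, minus strand) had 183 and 179 in cmt3, then 215 and 237. Its libraries did not overlap, but the log2 fold change of 0.32 did not pass the test (95% interval -0.11 to 0.74, adjusted p = 0.382 by limma). The interval reaches from slightly lower to a change as large as that of MYB3R3, so the calls alone do not tell these repressor genes apart. Compared within each library, the log2 ratio of MYB3R3 to MYB3R5 was 0.99 and 1.08 in cmt3 and then 1.44 and 1.36, without overlap, with an exact permutation p of 0.333, the smallest that these libraries allow. MYB3R5 overlaps PRT6 at one end on the opposite strand, and 5.78% of its exon 50-mers occur elsewhere in the genome, against at most 0.92% for each of the other members.

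The upstream sequences of both repressor genes are shown because they share a longer run of identical letters than any other pair of members. Both hold the MSA core and, nearer the gene, an identical run of 16 bases, GAAGAAGTATTCGTTA, that starts 53 bases before MYB3R3 and 41 bases before MYB3R5. No other pair shared more than 11 bases in a row. The 250 bases before each annotated start, chr3:2879103-2879352 on the plus strand and chr5:486474-486723 on the minus strand, read as follows in the RefSeq TAIR10.1 genome, with MSA cores in capitals:
MYB3R3: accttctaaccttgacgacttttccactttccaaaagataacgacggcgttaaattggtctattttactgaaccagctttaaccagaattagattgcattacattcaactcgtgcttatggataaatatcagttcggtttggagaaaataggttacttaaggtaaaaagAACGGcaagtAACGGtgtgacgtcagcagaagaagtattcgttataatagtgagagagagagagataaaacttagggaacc
MYB3R5: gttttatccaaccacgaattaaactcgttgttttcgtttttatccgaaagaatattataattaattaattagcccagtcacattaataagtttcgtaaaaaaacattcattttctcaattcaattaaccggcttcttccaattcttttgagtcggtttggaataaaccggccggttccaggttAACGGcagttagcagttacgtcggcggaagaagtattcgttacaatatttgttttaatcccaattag
The core AACGG or its reverse complement occurred in 20.6% of all promoters of this length, so its presence in a single gene is common.

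MYB3R2 (AT4G00540, chromosome 4, 234597 to 237582, minus strand) was listed at 0 in 3 of the 4 libraries and at 0.655 in the first labelled triple mutant replicate. It did not pass the filter and was not tested. None of the motifs searched occurred in its upstream window.

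**Figure D2:**
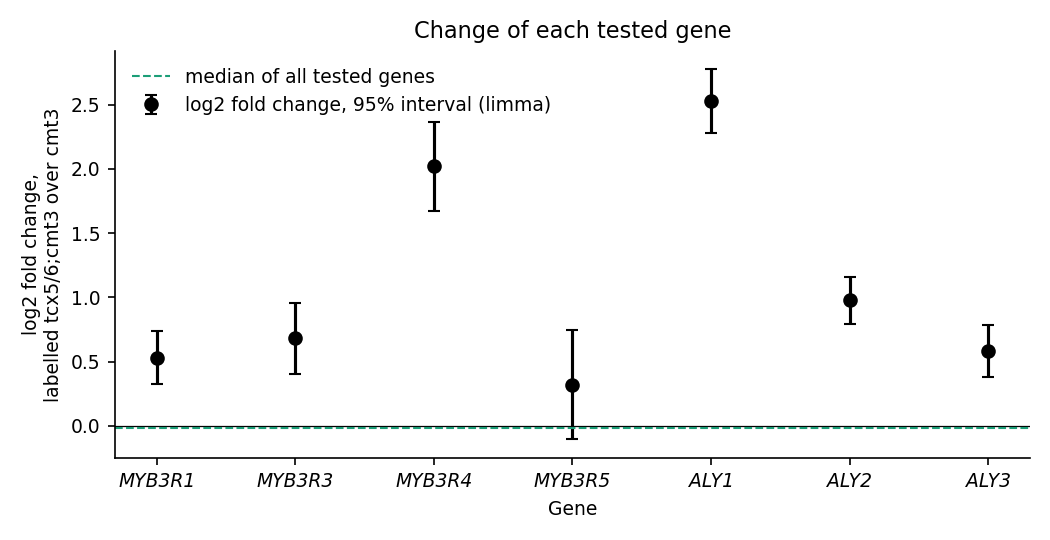
Log2 fold change of the labelled triple mutant over cmt3 for the 7 tested genes, with the 95% interval from limma. ALY1 at 2.53 and MYB3R4 at 2.02 stand above the others, the interval of MYB3R5 includes 0, and the dashed line marks the median of all tested genes at -0.02.

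Among the LIN9-like genes, ALY1 (AT5G27610, chromosome 5, 9764135 to 9769992, plus strand) had 285 and 263 in cmt3, against 1576 and 1589.7 with the added tcx5 and tcx6 labels. The replicates lay close together in both genotypes, and the mean was 5.78-fold higher. The log2 fold change of 2.53 (SE 0.10, adjusted p = 0.00035 by limma) ranked 207 of the 23666 tested genes. CYCH;1, the next gene on the higher coordinate side, was at 466 in both cmt3 libraries and then at 531 and 536 (95% interval -0.07 to 0.46, adjusted p = 0.397 by limma).

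The sequence upstream of ALY1 is shown because it held more copies of the MSA core than that of any other member. AACGG occurred 3 times in the 250 bases, 1 of them inside the longer form of the element (C or T, then C, then C or T, then AACGG). Of all promoters, 0.736% held the core 3 or more times and 1.79% held the longer form. TTTGAA occurred 1 time, on the other strand, as it did at least once in 38.8% of all promoters. For ALY2 the sequence is shown because it was the only member with an E2F site (TTT, then 2 bases that are each C or G, then CG, then C or G), which lay 38 to 31 bases before the start and occurred in 2.8% of all promoters. The 250 bases of each, chr5:9763885-9764134 and chr3:1539277-1539526 on the plus strand of RefSeq TAIR10.1, are given with the MSA, CHR and E2F letters in capitals:
ALY1: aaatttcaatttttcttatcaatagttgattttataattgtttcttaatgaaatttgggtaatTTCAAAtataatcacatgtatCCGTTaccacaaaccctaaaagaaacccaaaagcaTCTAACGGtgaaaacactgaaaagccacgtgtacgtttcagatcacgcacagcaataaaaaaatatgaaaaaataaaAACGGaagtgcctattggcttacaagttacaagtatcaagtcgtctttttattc
ALY2: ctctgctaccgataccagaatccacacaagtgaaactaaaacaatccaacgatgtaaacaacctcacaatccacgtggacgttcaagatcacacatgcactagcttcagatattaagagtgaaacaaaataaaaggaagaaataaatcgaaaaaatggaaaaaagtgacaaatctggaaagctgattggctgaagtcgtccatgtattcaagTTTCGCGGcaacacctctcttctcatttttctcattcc
These matches are letters in a window, and binding was not measured.

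**Figure D3:**
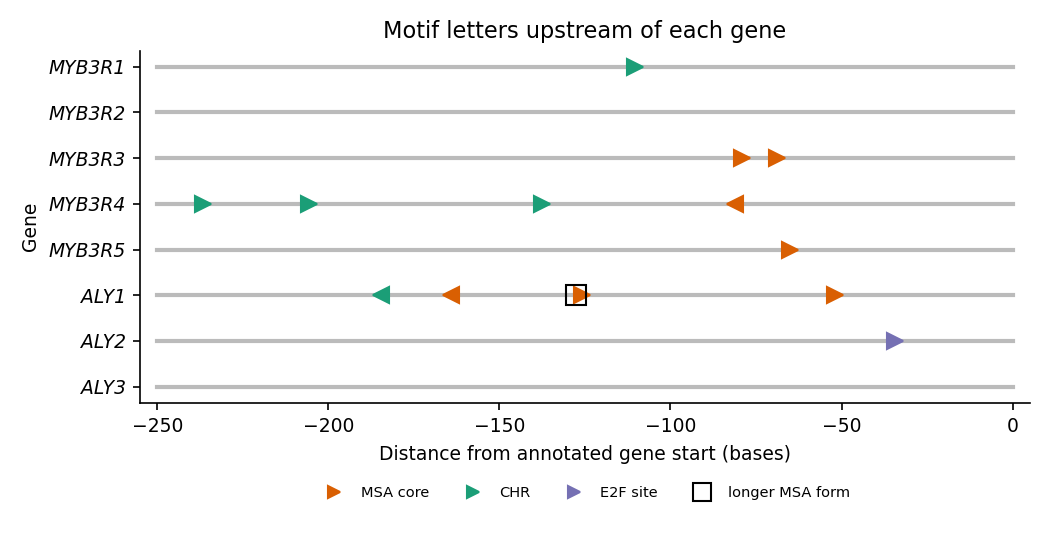
Position of the motif letters in the 250 bases before the annotated start of each gene, in bases from that start. Arrowheads point right for the gene's own strand and left for the other, and the open square marks the longer MSA form. ALY1 holds 3 MSA cores and MYB3R4 holds 3 CHR motifs, while MYB3R2 and ALY3 hold none of the motifs.

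ALY2 (AT3G05380, chromosome 3, 1539527 to 1546469, plus strand) went from 1154 and 1128 to 2231 and 2263. The mean rose 1.97-fold (1141 ± 18.9 and 2247 ± 22.2, SD, n = 2 each), or by 0.98 on the log2 scale (SE 0.08, adjusted p = 0.000968 by limma). RLP31, the receptor-like protein gene 656 bases before it, moved the other way, from 635 and 639.8 to 385 and 434 (log2 fold change -0.64, limma adjusted p = 0.0238). ALY2 overlaps AT3G05390 by 27 bases and spans AT3G01635, both on the opposite strand, and these stood at 56.7 to 94.8 and at 0 to 0.655. ALY3 (AT3G21430, chromosome 3, 7543772 to 7553682, minus strand) went from 1466 and 1374 to 2210.1 and 2041. It rose by 0.58 on the log2 scale (SE 0.08, adjusted p = 0.00961 by limma), and LBO1 beside it was not called (log2 fold change -0.06).

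The calls did not all rest on the same margin. Without the mean-variance trend limma called ALY1 (adjusted p = 0.0253), ALY2 (0.0384) and MYB3R4 (0.0395). It did not call MYB3R3 (0.071), ALY3 (0.108) or MYB3R1 (0.128). Over all 23666 tested genes that fit called 586 higher, against 1456 in the main fit. Without labelled triple mutant replicate 1, MYB3R1, MYB3R3 and ALY3 lost their calls, at log2 fold changes of 0.59, 0.71 and 0.52. Without labelled triple mutant replicate 2, MYB3R1 and MYB3R3 lost theirs, at 0.47 and 0.65. Calls over all tested genes fell as well in both fits. When a labelled triple mutant library was left out but the gene set of the 4-library fit was kept, limma called 0 members and 0 genes in all, with 2407 and 2490.0 genes at an unadjusted p under 0.05. In those fits 102 genes had a residual SD under 1e-06 on the log2 scale, against 0 when the filter was applied again. Leaving out a cmt3 library with the kept gene set left 118 such genes, and some members were still called. There MYB3R1 lost its call without either cmt3 library, and MYB3R3 lost it without cmt3 replicate 1. What ended the calls was not tested. The direction was higher for all 7 tested members under every alternative run.

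Levels can be compared between members only per length. As normalized signal per kb of merged exon, the order in cmt3 was MYB3R1 (357.5 ± 15.01), ALY3 (305 ± 14.1), ALY2 (294 ± 4.85), MYB3R3 (162 ± 5.75), MYB3R4 (129.8 ± 25.6), ALY1 (79.8 ± 4.62) and MYB3R5 (73.8 ± 0.935; SD, n = 2 each), with MYB3R2 at 0. The libraries of ALY3 and ALY2 overlapped, and those of the other neighbours in this order did not. In the labelled triple mutant the order was ALY2 (579 ± 5.71), MYB3R4 (522 ± 21.0), MYB3R1 (517 ± 32.2), ALY1 (461 ± 2.73), ALY3 (457 ± 25.7), MYB3R3 (260.3 ± 6.99) and MYB3R5 (92.3 ± 6.14). Here MYB3R4 and MYB3R1 overlapped, as did ALY1 and ALY3. In cmt3 MYB3R4 lay below MYB3R1, and ALY1 below ALY3, in both libraries. With coding length in place of exon length, MYB3R5 (109) lay above ALY1 (93.9) in cmt3. In the labelled triple mutant, coding length put the mean of MYB3R1 (660.1) above that of MYB3R4 (635), still with overlap, and ALY3 (650.2 and 600.4) above ALY1 (541 and 545) without overlap.

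The make-up of each family changed with these levels. Summed per kb, MYB3R signal went from 713 and 734 in cmt3 to 1375 and 1409. MYB3R4 made up 15.7% and 20.14% of this sum in the cmt3 libraries, against 39.1% and 36.01% in those labelled as triple mutant. The share of MYB3R1 was 51.7% and 47.2% in cmt3, against 35.9% and 38.3%, although its own level was higher in the labelled triple mutant. Summed ALY signal was 696 and 662 per kb in cmt3, against 1509 and 1485, of which ALY1 made up 11.9% and 11.5%, then 30.4% and 31.2%. No library of either genotype overlapped the other in any of these shares.

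**Figure D4:**
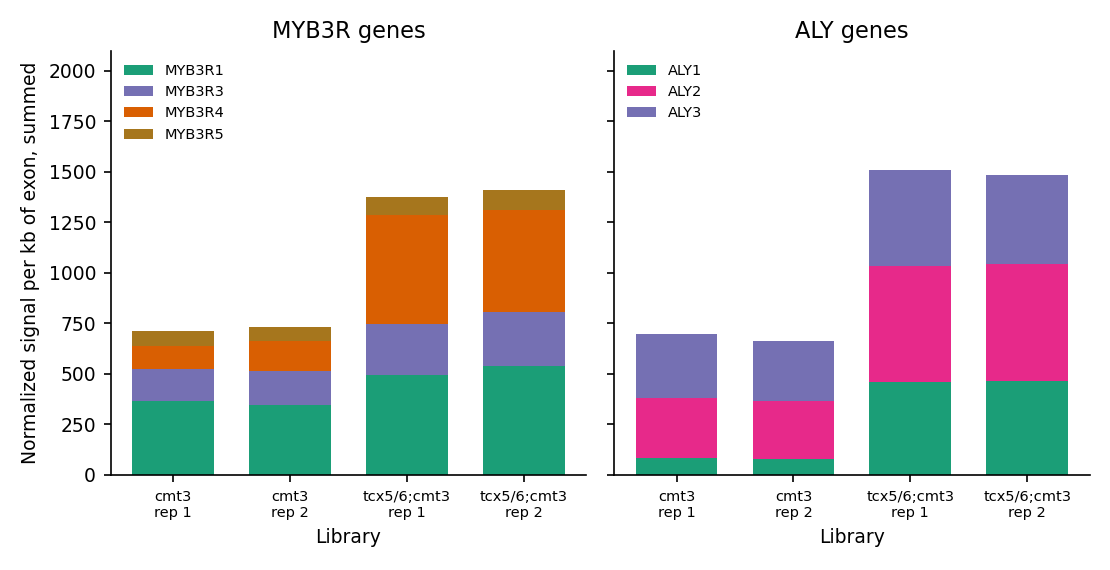
Normalized signal per kb of merged exon of the MYB3R genes (left) and the ALY genes (right), stacked by gene, with 1 bar per library. The summed MYB3R signal goes from 713 and 734 to 1375 and 1409 and the summed ALY signal from 696 and 662 to 1509 and 1485, with MYB3R4 and ALY1 taking larger parts. MYB3R2 is too low to draw.

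The activator and repressor MYB3R genes were compared within each library as the mean log2 signal of MYB3R1 and MYB3R4 minus that of MYB3R3 and MYB3R5. This log2 ratio was 1.58 and 1.71 in cmt3, against 2.46 and 2.38 in the other genotype. The mean of MYB3R1 and MYB3R4 was thus higher relative to that of MYB3R3 and MYB3R5 by 0.78 ± 0.08 (SE), without overlap between genotypes. The smallest two-sided p that exact permutation of 4 libraries allows, 0.333, is the value here, so this difference is a description. Within the roles, MYB3R4 relative to MYB3R1 changed by 1.49 (SE 0.27) and MYB3R3 relative to MYB3R5 by 0.36 (SE 0.06). MYB3R1 changed by -0.15 (SE 0.09) relative to MYB3R3 and by 0.21 (SE 0.03) relative to MYB3R5. The shift between the roles thus came mostly from MYB3R4. Relative to the mean of MYB3R1, MYB3R3 and MYB3R5, MYB3R4 was at -0.14 and 0.28 in cmt3 libraries, then 1.68 and 1.49, while MYB3R1 relative to MYB3R3 was at 1.97 and 1.82 and then at 1.71 and 1.78. Within the ALY family, ALY1 relative to ALY2 was at -2.01 and -2.10 and then at -0.50 and -0.51, a change of 1.55 ± 0.04 (SE).

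The other DREAM and E2F partners were read from a list of 21 genes, of which 12 were higher and 0 lower, against the 6.15% and 2.32% of all tested genes, with a median log2 fold change of 0.97. At an unadjusted p under 0.05, 0 were lower in limma. Higher were RBR1, the retinoblastoma protein gene (0.75), E2FA, E2FB and E2FC (1.71, 1.06 and 1.75), the atypical E2F genes DEL1 and DEL3 (0.97 and 2.38), the CXC-domain genes TCX2, TCX3, TCX4 and TCX7 (1.21, 1.58, 2.06 and 1.89) and the histone-binding WD40 genes MSI2 and MSI3 (1.09 and 0.95). TCX4 (AT3G04850) went from 225 and 207 to 909.8 and 894 (adjusted p = 0.000499 by limma). Not called were the E2F partner genes DPA (0.48) and DPB (-0.05), DEL2 (0.85), TSO1 (0.26), TCX8 (2.79, from 3.22 and 16.0 to 61.9 and 53.7), MSI1 (0.20), MSI4 (0.13), MSI5 (0.19) and the cyclin-dependent kinase gene CDKA;1 (-0.19). The log2 fold changes of ALY1 and MYB3R4, 2.53 and 2.02, lay beside those of DEL3 and TCX4, and those of MYB3R1 and ALY3 below that of RBR1. TCX2, TCX3, TCX4, TCX7 and TCX8 are relatives of the mutated genes, and the overlap of their reads was not examined.

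Among 27 genes of G2 and mitosis that are known to carry MSA elements or to bind MYB3R factors, 26 were higher and 0 lower, against 6.15% and 2.32% of all tested genes, and the median change was 1.03 on the log2 scale. The MSA core was found upstream of 19 of these 27 genes, a share that the choice of the list helps to set. It was found upstream of 4 of the 8 MYB3R and ALY genes and 9 of the 21 partner genes, beside 20.6% of all promoters. The smallest p-values belonged to the Aurora kinase gene AUR1 (log2 fold change 1.69), the cytokinesis kinesin genes TES (1.51) and PAKRP1L (1.21), the mitotic kinase gene CDKB2;1 (1.18), the cytokinesis syntaxin gene KNOLLE (1.03) and PLE, a microtubule bundling protein gene (1.29). CYCB2;1, a B-type cyclin gene at 78.4 and 92.9 and then at 167 and 146, was not called (0.86, limma adjusted p = 0.0899). Limma without the trend called 12 of the 27 higher, beside 586 of all 23666 tested genes. With the gene set of the 4-library fit it called 0 when either labelled triple mutant library was left out, as for the partner list. By point estimate the change of MYB3R4, at 2.02, was larger than that of every gene in this list. Those of MYB3R1, at 0.53, and of MYB3R3, at 0.68, were smaller than every one, the lowest being CDC20.1 at 0.75. The 95% intervals overlapped at both ends. That of MYB3R4 was 1.67 to 2.37, beside 1.45 to 1.94 for AUR1. Those of MYB3R1 and MYB3R3 were 0.32 to 0.74 and 0.40 to 0.96, beside 0.56 to 0.94 for CDC20.1.

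**Figure D5:**
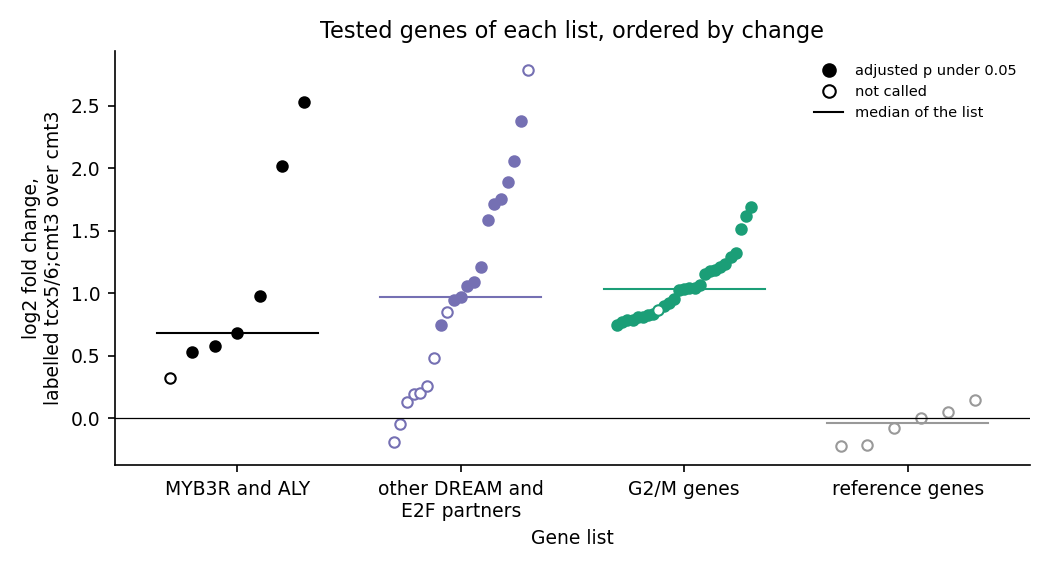
Log2 fold change of the labelled triple mutant over cmt3 for the tested genes of each list, ordered by value within the list, with filled points for an adjusted p under 0.05 and a line at the list's median. The medians are 0.68 for the MYB3R and ALY genes, 0.97 for the other DREAM and E2F partners, 1.03 for the G2 and mitosis genes and -0.04 for the reference genes.

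Summed floral marker signal moved with the same comparison, and the sum was mostly SEP3. Summed over AG, AP3, PI, AP1, SEP3 and LFY it went from 326 and 307 to 1041 and 728. Of the 5 markers tested 1 was called, SEP3, at 283 and 259 and then at 960.4 and 668. The others stayed below 41 in every library, with LFY at 0 in 3 of them. Shoot meristem markers summed to 275 to 345 in cmt3 and 302 to 328 in the labelled triple mutant. Root markers summed to 3088 to 3719 and then to 3212 to 3264. Of the tested genes 0 of 4 and 0 of 6 were called by limma, at an adjusted or an unadjusted p under 0.05. The meristem sum was mostly KNAT1, at 207 and 286 and then at 206 and 234. STM went from 49.7 and 44.7 to 70.8 and 63.8, and CUC1 from 7.37 and 13.6 to 14.4 and 20.3. Both were higher without overlap, as were 24.4% of all tested genes. CUC2, at 10.9 and 0 and then at 11.5 and 10.2, overlapped. The median log2 fold change of the tested meristem markers was 0.61. The 6 leaf markers had log2 fold changes from -0.31 to -0.11, and 0 were called. Of them 3 were lower without overlap, as were 25.7% of all tested genes. The part of flowers or of dividing tissue in the MYB3R and ALY values was not tested.

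Of the 17398 other genes with a mean of 100 or more, those nearest to each called member over the 4 libraries were found by Euclidean distance between centred log2 values. Nearest to MYB3R4 were CDKB1;1 (distance 0.0401), a cyclin-dependent kinase gene at 299 and 383 and then at 1414 and 1358, and DREB26 (0.0605). Nearest to ALY1 were POK1 (0.0432), the phragmoplast orienting kinesin gene, at 628 and 587 and then at 3374 and 3465, and AT2G20635 (0.0674), annotated as a protein with a kinase and a Mad3-BUB1-I domain. Nearest to ALY2 were AT3G15550 and CPK31, nearest to ALY3 AT1G09200, annotated as a histone, and AT1G31760, nearest to MYB3R1 AGG3 and AT1G68400, and nearest to MYB3R3 XRI1 and AT3G08943, at distances of 0.0181 to 0.0383. Such distances rest on 4 libraries and mostly follow the size of the change between genotypes.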

How the data were processed

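Per the submitters' processing notes, the tools were HISAT2 and edgeR and the build TAIR10. The sources used here do not give the read counter, strand setting, annotation or scaling. What the authors deposited is normalized signal by gene, fractional and unpooled, 1 column per library. A count test had been planned for counts, and limma was used because these are not counts. Depth is unknown, so no detection limit is given. Beside the mapped columns, 4 columns of values belong to no sample analysed here. They were looked at once, when the table was first read, and enter no result.

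Values under 1e-10 were set to 0. The filter asked for a value of at least 1 in at least 2 libraries (23666 of 32548 genes passed). Log2(value + 1), which understates changes of low genes, was modelled on genotype alone in limma 3.58.1 (R 4.3.3), trend included. P-values were Benjamini-Hochberg adjusted over all tested genes, with a threshold of 0.05. The limma step was also run on simulated data with equal spread in both genotypes, and its outcome is not given here.

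Exon and coding lengths, coordinates and promoter sequences came from the RefSeq TAIR10.1 genome and annotation, all 1-based. The table names genes by locus and holds no coordinates. Motifs were searched on both strands of the 250 bases before each gene with Python 3.11.15. The members and gene lists were chosen with earlier results of these data known. Named genes were all members, the mutated genes and the partner list. Of the G2 and mitosis list they were the 6 with the smallest p and those not called. The genes nearest to each called member were named too, with some of its neighbours. Of the neighbours not described, La1 and AT3G09360 were not called, and AT3G09380, AT5G27607 and AT3G21450 were not tested. The genes that overlap a member, CDC20.1 and the sequences shown were picked after their values were seen. Alternatives were other normalizations, filters, pseudocount and threshold, no trend, a replicate block and leaving out each library. Keeping the 4-library gene set while leaving out a library was chosen after seeing the data.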

Additional observations from a re-analysis of the deposited data

How the results depend on the processing

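With the filter applied again, calls over all genes rose without a cmt3 library and fell without a labelled triple mutant library. Counts per list are therefore not compared between these fits. Leaving out a library gave median log2 fold changes of 0.64 to 0.72 for the members and 0.91 to 1.06 for the partner genes. The G2 and mitosis median ranged from 1.00 to 1.07, and log2 fold changes from -1.54 to -1.43 for TCX5, 2.28 to 2.45 for TCX6 and 0.68 to 0.99 for CMT3. With the 4-library gene set kept, the prior degrees of freedom of limma were 2.45 and 2.46 without a cmt3 library, where members were still called. Calls were fewest when that gene set was kept without a labelled triple mutant library. There the prior degrees of freedom were 2.72 and 2.70, against 8.76 and 8.51 with the filter applied again. In those fits log2 fold changes without replicate 1 or 2 were -1.49 and -1.48 for TCX5, 2.45 and 2.28 for TCX6, and 0.86 and 0.80 for CMT3, none past the threshold. Limma without the trend gave 3 members and 12 G2 and mitosis genes higher, beside 586 of all 23666 tested genes. It did not call CMT3 (log2 fold change 0.83, adjusted p = 0.111). The cause was not tested. The G2 and mitosis median was 0.98 with median centring and 0.99 with quantile normalization. With MYB3R1 counted among the repressors, MYB3R4 alone shifted by 1.51 relative to them. With coding length, cmt3 levels per kb were 457 (MYB3R1), 233 (MYB3R3), 158 (MYB3R4), 109 (MYB3R5), 93.9 (ALY1), 361 (ALY2) and 418 (ALY3). The replicate block gave 6 members higher, 12 partners and 25 G2 and mitosis genes, beside 1314 of all 23666 tested genes. The same-numbered libraries share only a number, with a correlation of deviations of 0.00063. Of the 96 alternative values of the 6 called members, 25 lost the call and 0 reversed. The alternatives share the same 4 libraries and differ in how many genes they call over all. The kept calls are therefore no measure of how firm each call is. MYB3R5 was called in 0 of its alternatives. Where 1 library is left in a genotype, it is taken to vary like the other genotype's pair. Pairs differed 2-fold or more at 0.126% (labelled triple mutant) and 1.99% (cmt3) of the abundant genes.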
